A study of Mus musculus with 51 samples.

Results

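These 1353 meiotic recombination hotspots carried a region in the table of (B6xCAST) F1 germ cells and none in the ATAC table of B6 and KI germ cells. They are autosomal DMC1 peaks of Hells het testes that overlapped no DMC1 peak of Hells CKO testes, lay more than 1 kb from every annotated transcription start site, and had their midpoint in state 7 of the deposited map of 11 chromatin states, which numbers its states without naming them. Of 15831 DMC1 peaks of Hells het, 14759 were autosomal, 13149 of those had no Hells CKO peak, 11623 were distal to start sites and 8335 had their midpoint in state 7. Among the 8335, 1353 (16.2%) overlapped a region of the F1 table alone, 1928 (23.1%) overlapped a region of the B6 and KI ATAC table, and 5054 (60.6%) overlapped a region of neither. The first set is described here as the F1-table hotspots, and the other sets serve for comparison. The members were selected on measured values, namely the presence or absence of called DMC1, ATAC and F1 regions and the chromatin state, so none of those calls is a result. Just inside the distance limit were chr11:4700939-4703032, 1021 bp from Uqcr10, and chr17:23716710-23719702, 1024 bp from 1520401A03Rik. Just outside it were chr6:38459288-38461806, 997 bp from Ubn2, and chr1:84810182-84812886, 992 bp from Gm38374.

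PRDM9 is a zinc-finger methyltransferase that binds DNA in meiotic germ cells and places H3K4me3 where programmed double-strand breaks will form. Its zinc fingers differ between mouse strains, so the B6 and CAST alleles direct breaks to largely different sites, and binding at a given site can also differ with the DNA variants of a chromosome. HELLS is an SNF2-family chromatin remodeller, SPO11 is the enzyme that makes the breaks, and DMC1 is the recombinase that coats the single strands left at them, so DMC1 ChIP marks break sites after they have formed. ATAC-seq counts insertions of a transposase into open DNA, and H3K9ac is an acetyl mark found on active chromatin.

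The study's samples were (B6xCAST) F1 hybrids, which hold 1 genome of each strain; B6-Prdm9CAST-KI (KI) mice, whose B6 genome carries the CAST Prdm9 allele; Hells CKO, a conditional deletion; Spo11/Spo11, with both copies of the break enzyme's gene mutated; and the comparison strains Hells het, Hells wt, Spo11/+ and C57BL/6J (B6). Germ cells enriched from male mice aged 12 to 14 days gave the ATAC and histone libraries, while DMC1 was profiled in whole testis at 6 weeks of age and HELLS in testes of KI mice aged 12 to 14 days. The driver of the Hells deletion is not given in the sources used here. Libraries used were F1 ATAC (2) and F1 H3K9ac (1); H3K4me3 of Hells CKO (3), Hells wt (1), Spo11/Spo11 (2) and Spo11/+ (1); H3K9ac of KI (2), Spo11/Spo11 (1) and B6 (3); and ATAC of Hells CKO (3) and Hells wt (2). DMC1 and HELLS ChIP had 2 libraries in each group and enter here as peak lists. Whether libraries of 1 group stem from separate animals is not in the labels, and p-values therefore reflect the spread between libraries, which may be technical. Total counts per library were 6497850 to 9800791 over both alleles in the F1 table, 13321006 to 42007820 in the H3K4me3 table, 13195275 to 30233934 in the H3K9ac table and 6416704 to 11352108 in the Hells ATAC table. In the H3K4me3 table, promoters of all 8 germ cell genes examined held a region, with a median of 35.8 CPM, a count scaled to the library total. Promoters of 4 of 4 Sertoli cell genes did too, at a median of 118 CPM, and of 4 of 4 peritubular and endothelial genes at 20 CPM, 2 of 4 Leydig cell genes at 3.88 CPM and 1 of 4 blood cell genes at 1.94 CPM. Germ cell genes were therefore marked, and somatic promoters were marked as well; the part of other cells in the values below was not tested.

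The F1-table hotspots were spread over all 19 autosomes, and their share of the state 7 hotspots ran from 10.6% on chromosome 19 to 18.8% on chromosome 8. Their DMC1 peaks had a median width of 2428 bp (quartiles 1784 and 2951), against 2823 bp at hotspots with a B6 or KI ATAC region and 1887 bp at hotspots with no region. The state 7 segment at the midpoint had a median length of 1000 bp, against 1400 and 800 bp in the same comparison sets. Of the 1353, 679 had their midpoint in an intron, 619 were intergenic and 55 lay in an exon. The median distance to the nearest start site was 16520 bp. The 639 in protein-coding genes fell into 579 genes, 6 of which held 3 or more: Cdh13 held 5, Exoc4 held 4, and Tenm4, Ror2, Slc24a2 and Opcml held 3 each. Cdh13 and Opcml encode cell adhesion proteins, Exoc4 an exocyst subunit, Tenm4 a teneurin, Ror2 a receptor tyrosine kinase and Slc24a2 a cation exchanger.

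The midpoint of the overlapping F1 region lay a median of 143 bp from the DMC1 midpoint, and 1188 DMC1 midpoints fell inside an F1 region. The 1353 hotspots met 1352 distinct F1 regions, and 48 of them met 2 such regions. No B6 or KI ATAC region lay within 1 kb of 1229 of them. An H3K4me3 table region overlapped 1296 (95.8%), against 99% of hotspots with a B6 or KI ATAC region and 89.4% of those with no region. An H3K9ac region overlapped 947 (70.0%), against 94.8% and 43.4%. A region of the Hells ATAC table overlapped 77 (5.69%), against 53.1% and 3.84%. None of the 1353 overlapped a HELLS ChIP peak of KI testes, and 0 of the 5054 hotspots with no region did. Among the 1928 hotspots with a B6 or KI ATAC region, 15 (0.778%) overlapped such a peak of KI testes. PRDM9 is the CAST form in those testes.

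Sequences are shown for 8 of the hotspots whose F1 alleles differed with the lowest p, 5 higher on CAST and then 3 higher on B6 and show what the B6 reference holds where the alleles were read. Each run is 200 bases of the B6 reference (mm10, plus strand, RefSeq GRCm38.p6) around the midpoint of the F1 region, and capitals mark matches to the 8-letter word GNTGCTNC on either strand; the CAST sequence was not used here.
chr3:29039724-29039923: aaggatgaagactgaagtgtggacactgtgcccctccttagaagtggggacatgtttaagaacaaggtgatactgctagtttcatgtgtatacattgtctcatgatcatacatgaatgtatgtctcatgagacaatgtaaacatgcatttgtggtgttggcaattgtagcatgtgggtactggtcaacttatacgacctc
chr17:88782807-88783006: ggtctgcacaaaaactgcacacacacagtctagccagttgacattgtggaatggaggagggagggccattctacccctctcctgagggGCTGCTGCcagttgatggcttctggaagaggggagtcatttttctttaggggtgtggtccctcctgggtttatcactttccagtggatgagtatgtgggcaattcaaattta
chr16:13015582-13015781: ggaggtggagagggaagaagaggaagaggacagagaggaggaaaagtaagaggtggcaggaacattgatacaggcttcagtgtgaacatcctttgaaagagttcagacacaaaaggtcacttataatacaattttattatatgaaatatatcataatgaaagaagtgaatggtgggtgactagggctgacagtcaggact
chr1:98561890-98562089: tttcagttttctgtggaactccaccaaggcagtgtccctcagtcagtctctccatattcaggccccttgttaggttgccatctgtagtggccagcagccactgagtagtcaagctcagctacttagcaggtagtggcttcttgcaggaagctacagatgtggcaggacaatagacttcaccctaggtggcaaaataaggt
chr9:78962114-78962313: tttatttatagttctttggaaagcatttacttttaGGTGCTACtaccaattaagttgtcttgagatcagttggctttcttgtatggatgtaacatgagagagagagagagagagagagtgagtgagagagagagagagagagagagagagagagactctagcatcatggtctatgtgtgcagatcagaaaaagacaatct
chr6:66016933-66017132: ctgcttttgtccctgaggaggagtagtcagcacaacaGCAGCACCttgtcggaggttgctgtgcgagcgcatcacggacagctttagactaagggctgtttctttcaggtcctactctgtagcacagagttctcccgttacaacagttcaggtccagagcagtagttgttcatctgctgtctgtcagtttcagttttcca
chr12:73642662-73642861: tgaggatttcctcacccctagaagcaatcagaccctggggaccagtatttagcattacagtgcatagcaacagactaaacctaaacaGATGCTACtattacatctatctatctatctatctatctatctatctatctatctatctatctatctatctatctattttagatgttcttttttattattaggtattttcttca
chr5:81938391-81938590: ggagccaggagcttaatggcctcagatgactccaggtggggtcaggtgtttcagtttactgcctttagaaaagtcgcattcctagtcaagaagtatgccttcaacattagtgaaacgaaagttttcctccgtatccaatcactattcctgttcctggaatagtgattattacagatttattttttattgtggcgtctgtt
The word was found in the printed windows on chromosomes 17, 9, 6 and 12, and not in those on chromosomes 3, 16, 1 and 5. The chromosome 12 window also holds a run of repeated tcta units, and the chromosome 9 window a run of repeated ga units.

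The word GNTGCTNC was chosen after 8-letter words had been ranked by their share of 300-base windows at DMC1 midpoints over their share of windows 2 kb to either side, with 1 percentage point added to each share. Of the 12 words ranked highest, 5 were forms of it. The word GATGCTAC stood in 4.66% of hotspot windows and 0.370% of flanking windows, GATGCTGC in 7.32% and 1.22%, and GGTGCTGC in 5.62% and 1.18%. The general form stood in 449 of 1353 windows (33.2%) at the F1-table hotspots and in 12.0% of their flanking windows. The shares were 38.7% and 13.9% at hotspots with a B6 or KI ATAC region, and 33.5% and 13.4% at hotspots with no region. Placed on the F1 region midpoint, the window held the word at 34.4% of the F1-table hotspots and at 21.5% of all 78667 autosomal F1 regions. A match is a description of letters in the reference. The GC content of the central 300 bases had a median of 42.3% at the F1-table hotspots, against 45.3% at hotspots with a B6 or KI ATAC region and 42.0% at those with no region, and masked repeats in the reference covered a median of 16%, 11.5% and 15% of those bases in the same order.

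The F1 table does not say from which assay its regions were called, so whether these hotspots were open in F1 germ cells was read from the ATAC counts. Both alleles and both libraries together gave a median of 63.0 ATAC allele counts at the F1-table hotspots and 104 at all autosomal F1 regions. Per kb of region, the medians were 54.2 and 73.9 counts, and 440 of 1353 hotspots lay above the autosomal median. Allele counts were 0 in both libraries at 44 hotspots, and 1151 reached the 20 counts set for testing. The hotspots were thus measurable but on the low side of the table, and for those at 0 counts openness could not be read. Allele counts are estimates that depend on reads telling the genomes apart, so a count of 0 does not show closed chromatin.

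ATAC counts at the F1-table hotspots leaned to the CAST chromosome. Summed over the 1352 distinct regions, library 1 gave 52202 CAST and 27573 B6 counts (65.4% CAST), and library 2 gave 45421 CAST and 26842 B6 counts (62.9% CAST). Over all autosomal F1 regions the CAST share was 49.5% in library 1 and 49.6% in library 2. In edgeR's quasi-likelihood test with the library as a block and Benjamini-Hochberg adjustment over all 70654 regions tested, 340 of 1151 hotspots (29.5%) were higher on CAST at an adjusted p under 0.05, against a background of 5.53% of all regions, and 28 (2.43%) were higher on B6, against 8.22%. The background holds the X chromosome, where 1318 of 1399 regions were higher on B6; on autosomes alone it was 5.63% for CAST and 6.48% for B6. The median log2 ratio of CAST over B6 was 0.62 (quartiles -0.04 and 1.36), against -0.03 over all regions tested. Across the 1151 tested hotspots, the log2 ratios of the 2 libraries had a Pearson's r of 0.62, as a description. The absence of a region in B6 and KI germ cells, which chose the hotspots, bears on the B6 chromosome, so this direction is not independent of the choice. DESeq2 called fewer, 154 higher on CAST and 9 higher on B6, against 1.71% and 2.78% of all regions.

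Hotspots of the same state with a B6 or KI ATAC region were chosen by the opposite condition. Only 1199 of the 1928 overlapped an F1 region, and the F1 values given for this set cover those alone. Of 1067 tested, 154 (14.4%) were higher on CAST and 65 (6.09%) higher on B6, with a median log2 ratio of 0.09. Their CAST share was 55.4% in library 1 and 54.6% in library 2. The difference between the sets was not tested. The lean to CAST at the F1-table hotspots was present on each of the 19 autosomes, with medians of 0.21 on chromosome 11 to 1.17 on chromosome 18.

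**Figure D1:**
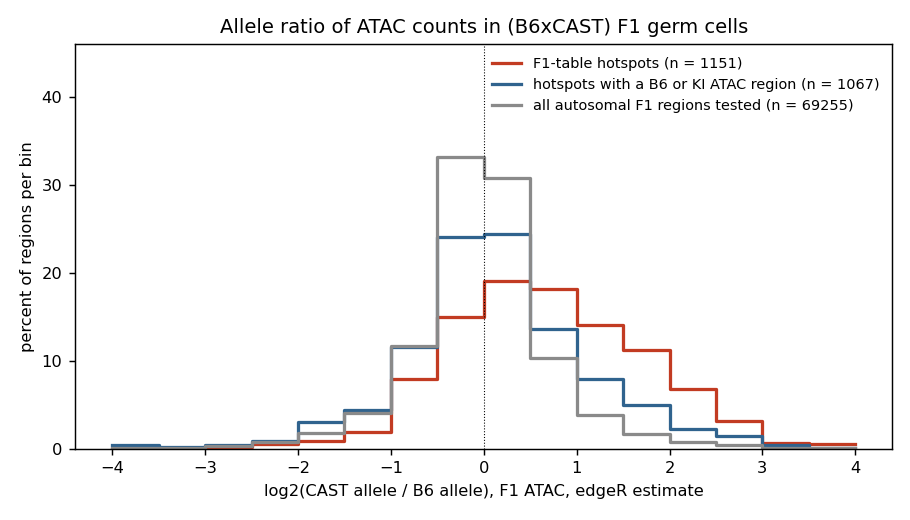
Percent of regions (vertical axis) in bins of the log2 ratio of CAST over B6 ATAC counts in F1 germ cells (horizontal axis), for the F1-table hotspots, hotspots with a B6 or KI ATAC region, and all autosomal F1 regions tested; the outermost bins also hold values beyond them. The F1-table hotspots are shifted to the right of both other curves. Their median is 0.62, against 0.09 at hotspots with a B6 or KI ATAC region that also overlapped an F1 region.

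The hotspot with the lowest p was chr3:29038015-29041763, intergenic and 40260 bp from Egfem1, whose F1 region is chr3:29039352-29040297. It had 3091 and 2964 ATAC counts on the CAST allele, against 65 and 54 on the B6 allele, in libraries 1 and 2. The alleles did not overlap, and the log2 ratio was 5.67 ± 0.09 (SE; edgeR adjusted p = 1.53e-18). F1 H3K9ac gave it 43 CAST and 6 B6 counts there, 87.8% CAST with an exact 95% interval of 75.2% to 95.4%. Its CAST counts also stood far above those of the other hotspots named here.

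In an intron of Lhcgr, the luteinizing hormone receptor gene, chr17:88781808-88784178 had 429 and 293 CAST counts and 33 and 37 B6 counts, a log2 ratio of 3.35 ± 0.17 (SE; edgeR adjusted p = 6.1e-11). H3K9ac there was 90 counts on CAST and 4 on B6. At chr16:13014995-13017302, intergenic, the counts were 292 and 341 on CAST and 35 and 33 on B6 (log2 3.21 ± 0.17). In each of these the CAST allele was several-fold higher in both libraries. At chr1:98561376-98562901, intergenic, they were 393 and 342 on CAST and 33 and 49 on B6 (log2 3.16 ± 0.17), but H3K9ac had only 8 CAST and 2 B6 counts, too few to read an allele share from (exact 95% interval 44.4% to 97.5% CAST). At chr9:78961367-78962894, intergenic, they were 271 and 254 on CAST and 25 and 14 on B6 (log2 3.75 ± 0.21). An intron of Ulk4, a kinase-family gene, holds chr9:121084573-121086446, with 392 and 308 CAST and 66 and 62 B6 counts (log2 2.45 ± 0.14). It had more H3K9ac than the others, with 251 CAST counts and 15 B6 counts (94.4% CAST, exact 95% interval 90.9% to 96.8%). The last, chr9:52194176-52196873, 25604 bp from Zc3h12c, had 209 and 212 CAST counts and 14 and 21 B6 counts (log2 3.58 ± 0.22).

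Higher on B6 were fewer hotspots, and the lowest p among them was at chr6:66016337-66018081, intergenic and 20700 bp from Gm5876. Its ATAC counts were 201 and 214 on CAST and 1299 and 1296 on B6, a log2 ratio of -2.64 ± 0.08 (SE; edgeR adjusted p = 3.75e-14), and H3K9ac was 86 on CAST and 172 on B6. An intron of Prkch, a protein kinase C gene, holds chr12:73641317-73643925, with 228 and 218 CAST and 899 and 908 B6 counts (log2 -2.02 ± 0.09). H3K9ac did not follow there, at 43 CAST and 29 B6 counts (59.7% CAST, exact 95% interval 47.5% to 71.1%). At chr5:81937199-81939605, intergenic, ATAC counts were 98 and 102 on CAST and 466 and 475 on B6 (log2 -2.23 ± 0.12). At chr1:119890883-119892180, 5281 bp from Gm3551, they were 36 and 48 on CAST and 150 and 128 on B6 (log2 -1.72 ± 0.22), with 10 CAST and 96 B6 counts of H3K9ac. The F1 region of this last hotspot, chr1:119892030-119894503, lies mostly beyond the end of the DMC1 peak.

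High counts did not always come with an allele difference. Of the 4 hotspots with the most F1 ATAC counts, 3 are named above, and the other, chr16:46011574-46013486, 1356 bp from Plcxd2, had 743 and 727 CAST counts and 737 and 766 B6 counts. The alleles overlapped, and the log2 ratio was -0.03 ± 0.07 (SE; edgeR adjusted p = 0.851). Its H3K9ac was 142 on CAST and 158 on B6.

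**Figure D2:**
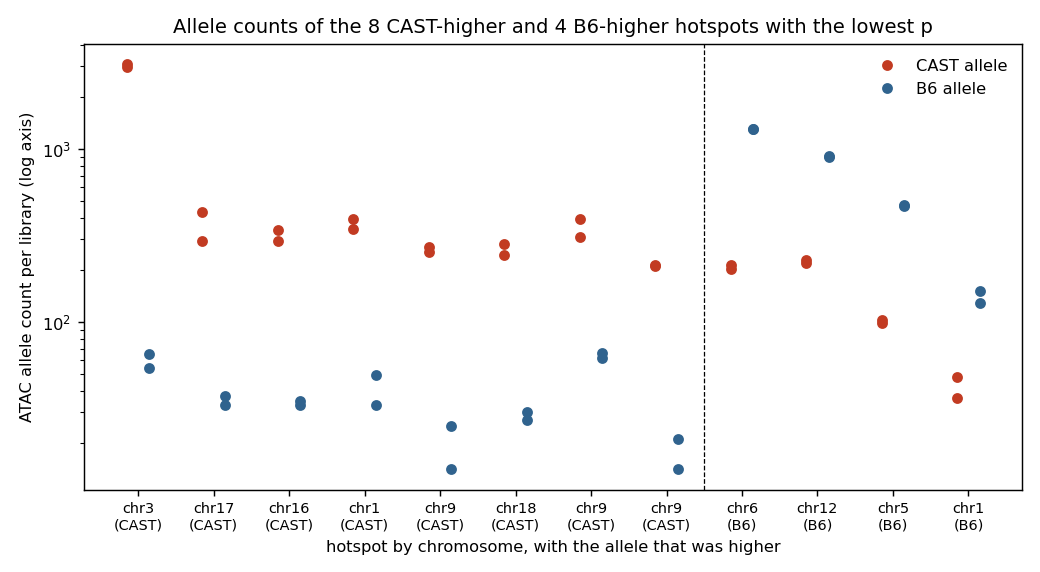
ATAC allele counts (vertical log axis) of both F1 libraries at the 8 hotspots higher on CAST and the 4 higher on B6 with the lowest p, CAST left of B6 in each pair; the broken line parts the directions. No pair of alleles overlaps, and the first hotspot, on chromosome 3, has 3091 and 2964 CAST counts against 65 and 54 B6 counts.

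H3K9ac of 1 F1 library leaned the same way. It has no replicate, so its values carry no test. Over the same regions it had 34717 CAST and 13585 B6 counts (71.9% CAST), against 48.8% CAST over all autosomal F1 regions. At least 20 allele counts were reached at 715 hotspots, where the median of log2((CAST + 1)/(B6 + 1)) was 1.75, against -0.06 over all 52177 regions of that depth. CAST exceeded B6 by more than 2-fold at 473 of the 715 (66.2%), against a background of 8.42%, and B6 exceeded CAST by more than 2-fold at 27 (3.78%), against 11.5%. At hotspots with a B6 or KI ATAC region that also overlapped an F1 region, the figures were 176 and 93 of 708, with a median of 0.16. The same link between the choice of hotspots and the B6 chromosome holds for this mark.

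ATAC and H3K9ac pointed to the same allele at most of the hotspots called in ATAC. Among those higher on CAST in ATAC, 302 had 20 H3K9ac counts, 288 of them exceeded 2-fold on CAST and 0 exceeded 2-fold on B6. Their median H3K9ac log2 ratio was 2.62. Among 17 higher on B6 in ATAC, 8 exceeded 2-fold on B6 and 2 exceeded 2-fold on CAST in H3K9ac, with a median of -0.99. At the 392 whose ATAC alleles were not called, the median was 0.91 and 182 exceeded 2-fold on CAST. The matching counts over all F1 regions were not worked out. Whether the agreement of ATAC and H3K9ac is particular to these hotspots was not tested. Across the 711 hotspots with both values, Pearson's r was 0.70 and Spearman's rho 0.72, as a description, since the hotspots share libraries and both assays read the same variants between the genomes.

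**Figure D3:**
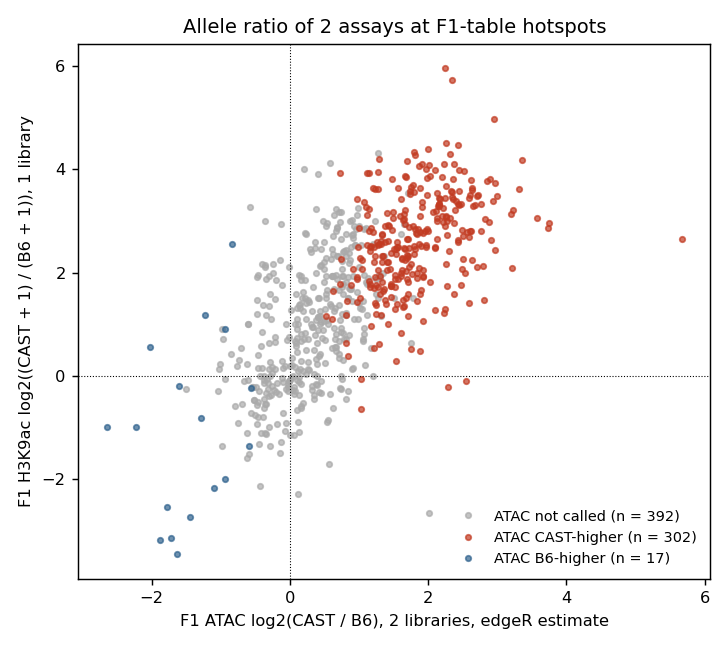
Log2 ratio of CAST over B6 in F1 ATAC (horizontal axis, 2 libraries) and in F1 H3K9ac (vertical axis, 1 library) at 711 F1-table hotspots, coloured by the ATAC call. Of 302 hotspots called higher on CAST in ATAC, 288 lie above 1 on the H3K9ac axis, while the 17 called higher on B6 lie on both sides of 0.

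The distance of the F1 region from the DMC1 peak was set beside the ATAC call. Its midpoint was more than 500 bp from the DMC1 midpoint at 8.53% of the 340 hotspots higher on CAST, 17.9% of the 783 not called and 35.7% of the 28 higher on B6. A B6 or KI region lay within 1 kb of 17, 88 and 6 of them in that order. The word GNTGCTNC stood in the 300 bases at the F1 midpoint in 38.8%, 33.5% and 21.4% of them, but the shares lay closer together at the DMC1 midpoint, at 34.1%, 33.8% and 28.6%. The DMC1 peaks had median widths of 2144, 2485 and 1881 bp. The median total of ATAC counts was 157 at hotspots higher on CAST, 54.0 at those not called and 192 at those higher on B6, so being called went with depth. None of these differences was tested.

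H3K4me3, the mark that PRDM9 writes, was low at the F1-table hotspots in Hells CKO germ cells. The median over 1296 hotspots was 0.466, 0.722 and 0.403 CPM in the 3 Hells CKO libraries, against 2.69 CPM in the Hells wt library. At 1281 of the 1296 (98.8%) every Hells CKO library was below the Hells wt library. The matching share of all regions was not worked out, so this count is a description. In edgeR's quasi-likelihood test with Benjamini-Hochberg adjustment over 78959 regions, 1043 (80.5%) were lower in Hells CKO, against a background of 11.7%, and 0 were higher, against 0.0279%. DESeq2 gave 936 lower and 1 higher, against 9.88% and 1.32% of all regions, and at an unadjusted p under 0.05 the edgeR test gave 1222 in either direction, against 18.1%. The median log2 change was -2.37. The hotspots were chosen as DMC1 peaks absent from Hells CKO, which is the same genotype contrast, so nothing is read from this count. With 1 Hells wt library, the SE and p of this contrast and of the hotspots named for it below rest on the spread within the other groups and take the lone library to vary like them. Between the Hells CKO and Hells wt libraries with adjacent library numbers in the labels, the median difference in log2 CPM was -1.83. Over all regions that median was -0.016. Of the 1296 hotspots, 1288 were lower.

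Level tracked the kind of hotspot. Per kb of region, H3K4me3 in Hells wt had a median of 2.49 CPM at the F1-table hotspots, against 3.50 at hotspots with a B6 or KI ATAC region and 1.99 at hotspots with no region. In Spo11/+ the medians were 4.71, 7.11 and 3.38 CPM per kb in that order. The F1-table hotspots thus sat between the other sets in both libraries.

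Spo11/Spo11 and Spo11/+ germ cells both carried H3K4me3 at the F1-table hotspots. The medians were 4.09 and 3.93 CPM in the Spo11/Spo11 libraries, against 5.09 CPM in the Spo11/+ library. No hotspot passed the test in either direction, where the background was 0% in both, and DESeq2 also called 0. In edgeR, 2 of 1296 had an unadjusted p under 0.05, as did 0.201% of all regions. The median log2 change was -0.34 and 1246 of 1296 hotspots were below 0, while the median over all regions was -0.02. Hotspots with a B6 or KI ATAC region and those with no region had medians of -0.32 and -0.34. With 1 Spo11/+ library, a small difference between libraries and one between genotypes cannot be told apart.

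**Figure D4:**
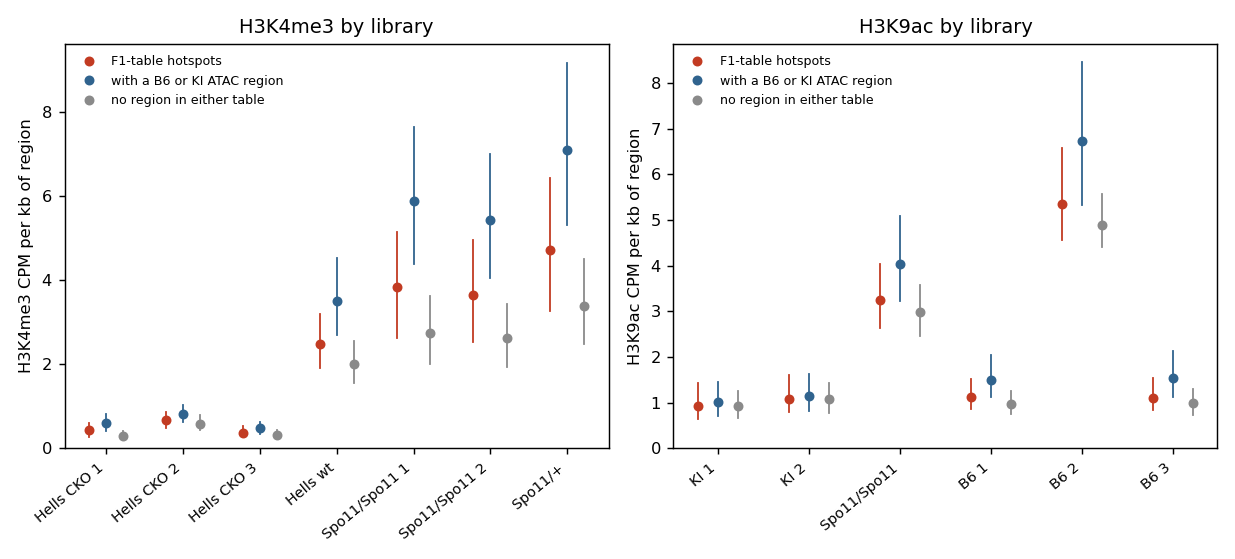
H3K4me3 (left) and H3K9ac (right) in CPM per kb of region, by library, at the F1-table hotspots and both comparison sets; points are medians over hotspots and lines run between the quartiles. The 3 Hells CKO libraries lie below the 4 libraries with HELLS for H3K4me3, and the second B6 library stands apart from the other B6 libraries for H3K9ac.

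Of the 6 hotspots with the most H3K4me3, 3 had fewer than 20 F1 ATAC allele counts and were not tested, and 3 were tested and not called. They were ranked by their mean in the libraries with HELLS, which include the Hells wt library. All were also chosen as DMC1 peaks absent from Hells CKO. Their changes in Hells CKO are therefore a description, and nothing is read from their p-values. An exon of Sfi1, a centriole protein gene, holds chr11:3132792-3134087, with 9.42, 27.3 and 18.4 CPM in Hells CKO libraries, against 103 CPM in Hells wt (log2 -2.50 ± 0.39 SE, edgeR adjusted p = 0.00144). An intron of Sp140 holds chr1:85620071-85621695, with 9.08, 14.0 and 8.65 CPM in Hells CKO libraries, against 46.4 CPM in Hells wt (log2 -2.14 ± 0.26). Both of these had 0 F1 allele counts on either allele in ATAC and in H3K9ac, so nothing of the F1 alleles can be read there. The F1 region of the Sfi1 hotspot, chr11:3122680-3139639, is far wider than the median F1 region of the hotspots, 1212 bp. In an intron of Nfyc, a subunit of the CCAAT-binding factor NF-Y, chr4:120816948-120820209 lies 1236 bp from the start site, and went the other way without passing the test. It had 60.2, 27.6 and 44 CPM in Hells CKO libraries, against 24.4 CPM in Hells wt (log2 0.85 ± 0.37, edgeR adjusted p = 0.238). An intron of Slc26a8, an anion transporter gene, holds chr17:28685743-28688635, with 1.83, 1.5 and 1.54 CPM in Hells CKO libraries, against 10.3 CPM in Hells wt (log2 -2.65 ± 0.24). Its F1 ATAC counts were 24 and 22 on CAST and 12 and 19 on B6. It lies 1154 bp from the start site. H3K9ac in the B6 libraries was 91.1, 107 and 88.6 CPM there, and 66.7, 64.6 and 58.4 CPM at the Nfyc hotspot. The medians over hotspots were 1.39, 6.55 and 1.34 CPM. The F1 region of the Nfyc hotspot, chr4:120813482-120817095, lies mostly outside the DMC1 peak. The part of the nearby start sites in the marks at both hotspots was not tested. An intron of Galk2, a sugar kinase gene, holds chr2:125879413-125882258, and chr3:61942829-61946290 is intergenic; both were lower in Hells CKO too, with log2 changes of -2.51 ± 0.33 and -2.20 ± 0.41. At these and the Slc26a8 hotspot the F1 alleles had adjusted p-values of 0.294, 0.492 and 0.449 in edgeR.

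Hotspots that leaned more to CAST in F1 had less H3K4me3 in mice that are not F1. The ratio has the B6 allele as its denominator, and the hotspots were chosen by the absence of a B6 or KI ATAC region. This order is therefore not independent of that choice and is given as a description. In Spo11/+, the median fell with the F1 ratio, at 5.16 CPM per kb for the 40 hotspots with a log2 ratio under -1, 5.35 for 254 between -1 and 0, 4.69 for 408 between 0 and 1, 4.24 for 275 between 1 and 2, and 3.55 for 121 over 2. In Hells wt the values were 2.68, 2.62, 2.49, 2.26 and 2.07 CPM per kb. Among the 4 libraries with HELLS, only the lowest bin broke the order, in Spo11/+ and in both Spo11/Spo11 libraries. Across 1098 hotspots, Spearman's rho between the ratio and the mean CPM per kb of the 4 libraries with HELLS was -0.22 and Pearson's r -0.19, a weak relation given as a description. By call, the Spo11/+ medians were 4.08 CPM per kb at hotspots higher on CAST, 4.84 at those not called and 4.32 at those higher on B6, so the called groups did not follow the order of the bins throughout. The Hells CKO libraries were low in every bin but also had less in the highest bin, at 0.286, 0.583 and 0.322 CPM per kb in libraries 1 to 3, than in the lowest, at 0.50, 0.831 and 0.429. From the bin of -1 to 0 to that of 0 to 1, Hells CKO libraries 2 and 3 rose, from 0.673 to 0.690 and from 0.368 to 0.391. Whether the order holds at such low values was not tested. The F1 ratio also went with the total F1 ATAC count, with a Spearman's rho of 0.39 and a Pearson's r of 0.19 across 1151 hotspots. That total includes the CAST counts of the ratio, so the ratio and the total are not independent.

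**Figure D5:**
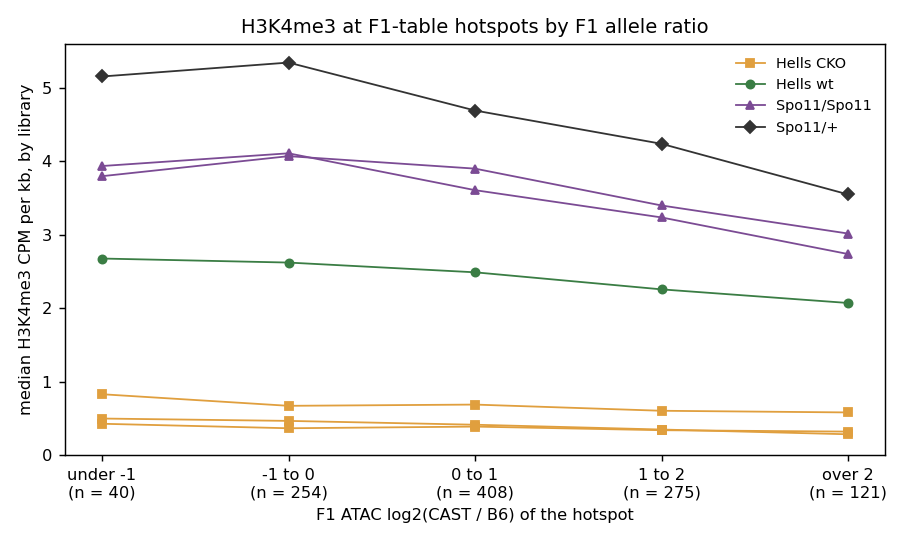
Median H3K4me3 in CPM per kb (vertical axis) of the F1-table hotspots, in bins of their F1 ATAC log2 ratio of CAST over B6 (horizontal axis), 1 line for each library. In Spo11/+ the median is 3.55 in the bin over 2 and 5.35 in the bin from -1 to 0, and the Hells CKO lines stay under 1.

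H3K9ac at the F1-table hotspots was set apart by 1 library. The median over 947 hotspots was 1.06 and 1.27 CPM in the KI libraries and 3.97 CPM in the Spo11/Spo11 library, against 1.39, 6.55 and 1.34 CPM in B6. The second B6 library was several-fold above the other 2, and the Spo11/Spo11 library also lay above those 2, while the medians over all regions of the table, 3.87, 4.72 and 3.91 CPM in B6, lay close together. Hotspots with a B6 or KI ATAC region showed the same order, 2.23, 10.5 and 2.35 CPM in B6.

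In KI against B6, the median log2 change of the hotspots was -1.43, and 25 of 947 (2.64%) were higher in KI, against a background of 12.1%, while 2 (0.211%) were lower, against 0.208%. Without the second B6 library, 117 were higher and 198 lower, with a median of -0.29; 28.7% of all regions were then higher and 26.8% lower. Without either KI library 0 passed, among all regions too. Without B6 library 1, 8 were higher and 0 lower, where 7.65% and 0.0501% of all regions were, and without B6 library 3, 1 was higher, where 2.16% of all regions were. DESeq2 called 40 higher and 72 lower, against 15.2% and 1.69% of all regions, and scaling by library size alone 20 and 6, against 10.6% and 0.51%. The labels tie B6 libraries 1 and 3, but not the second, to the map of chromatin states that chose the hotspots, so B6 levels are given as a description.

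Most of the 25 hotspots higher in KI had their F1 region away from the centre of the DMC1 peak. At 22 of them the F1 midpoint lay more than 500 bp from the DMC1 midpoint, as it did at 210 of all 1353, and 12 had a B6 or KI ATAC region within 1 kb, which 1229 of all 1353 did not have. Their log2 changes ran from 0.79 to 6.35. In F1 ATAC, 2 of them were higher on CAST, 4 higher on B6, 18 not called and 1 not tested. One is the chromosome 1 hotspot chr1:119890883-119892180 named above, with 39.5 and 46.6 CPM in KI against 3.90, 12.2 and 3.75 CPM in B6 (log2 2.73 ± 0.56 SE, edgeR adjusted p = 0.0358). Its groups did not overlap. The difference in position was not tested.

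In Spo11/Spo11 against B6, no hotspot passed the H3K9ac test in either direction, where the background was 0% in both, and DESeq2 also called 0. In edgeR, 5 of 947 had an unadjusted p under 0.05, as did 3.93% of all regions. The median log2 change was 0.34. Its value depended on which B6 libraries were in the fit, and most of all on the second B6 library. Without it 763 were higher and 6 lower with a median of 1.53, where 23.1% of all regions were higher and 12.7% lower, and without B6 library 1 or 3 the median was -0.013 or -0.017 with 0 passing. Spo11/Spo11 has 1 H3K9ac library, so a difference of that library and one of the genotype cannot be told apart.

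Openness in Hells mice could be followed at few of the F1-table hotspots. Of the 77 with a region in the Hells ATAC table, the median was 2.50, 2.45 and 2.81 CPM in Hells CKO, against 3.24 and 3.62 CPM in Hells wt. Every Hells CKO median was below both Hells wt medians, but per kb of region the groups overlapped, at 2.39, 2.85 and 3.03 CPM in Hells CKO and 2.93 and 3.63 CPM in Hells wt. Of 74 tested in edgeR, 0 passed in either direction, against a background of 0.382% lower and 0% higher, and 16 had an unadjusted p under 0.05, as did 1.54% of all regions. DESeq2 called 0 of the hotspots and 0.443% of all regions, as lower. With the adjacent library numbers of the labels as a block, 12 were lower and 0 higher, where 1.26% of all regions were lower and 0.0147% higher, and the pairs of libraries with adjacent numbers gave median log2 differences of -0.24 and -0.26. This contrast shares its genotypes with the choice of hotspots and is given as a description.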

How the data were processed

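Per the submitters' processing notes, the tools were CASAVA, BWA 0.7.15, Bowtie 0.12.9 and MACS 1.4.2 on mm10, with no role given for each. The deposited region tables hold read counts per called region, and the F1 table holds estimated counts per allele, which per the file's name came from EMASE; these were rounded. The peak lists and the map of chromatin states are the authors' deposited intervals. Segment ends of that map lay 13 to 193 bp short of the GRCm38.p6 chromosome lengths. Members were found by overlaps of at least 1 bp and GENCODE M21 start sites. The rule, the word lists and the tests were chosen with earlier results of these data known. Each table was fitted whole in R 4.3.3 with edgeR 4.0.16 (TMM, filterByExpr, quasi-likelihood test, Benjamini-Hochberg 0.05); F1 alleles were fitted with the library as a block, no scaling between alleles and at least 20 allele counts, so each library's alleles are paired. DESeq2 1.42.0 was an alternative. CPM are counts divided by the TMM-adjusted sum over a table's regions; SE is the log2 change over the root of F. The fits were tested on simulated counts. Intervals on F1 H3K9ac are exact binomial and cover counting error only, since no molecular identifiers are named in the labels. There were 56 duplicated regions in the Hells ATAC counts, which were removed. A further 10 columns of the F1 and H3K4me3 files matched no sample label and were not used. Named hotspots are the 8 CAST-higher and 4 B6-higher with the lowest F1 ATAC p, the 6 with the most H3K4me3 in libraries with HELLS, the 4 with the most F1 ATAC counts and 2 on each side of the 1 kb limit; 1 of them, on chromosome 18, is shown in the plot of allele counts and has no sequence here. Words were named after their shares were seen.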

Additional observations from a re-analysis of the deposited data

How the results depend on the processing

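The lean of F1 ATAC to CAST kept its direction under each alternative run. Without the replicate block, which pairs the alleles of a library (the labels give no replicate numbers shared between groups), 358 hotspots were higher on CAST and 28 on B6, 386 in all, where 5.96% and 8.65% of all regions were. DESeq2 called 154 and 9 (163 in all). With at least 10 allele counts, 303 of 1252 tested were higher on CAST and 24 on B6, where 4.55% and 7.08% of all regions were. With at least 50, 357 of 802 were higher on CAST and 30 on B6, where 8.06% and 10.7% of all regions were. At 50 counts the median was 0.84. With TMM scaling between alleles 372 of 1151 were higher on CAST and 30 on B6, where 7.17% and 9.02% of all regions were. Using either library alone, the median of log2((CAST + 1)/(B6 + 1)), taken from the counts without a fit, ran from 0.55 to 0.65. For F1 H3K9ac, at least 10 counts gave a median of 1.32 with 52 past 2-fold on B6, and a pseudocount of 5 gave 1.38 with 15. The share of all regions past 2-fold was not worked out at these settings. Requiring state 7 over the larger part of the peak left 499 hotspots. Of those tested, 31.3% were higher on CAST and 4.34% on B6, against 29.5% and 2.43% in the main set.

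H3K9ac of KI against B6 with 1 library left out ran from 0 to 117 higher, 0 to 198 lower, 0 to 315 in all, and from -1.80 to -0.29 in the median; DESeq2 gave 40, 72 and 112, and library sizes alone 6 lower. For Spo11/Spo11 against B6 the ranges were 0 to 763, 0 to 6, 0 to 769, and -0.017 to 1.53. H3K4me3 of Hells CKO against Hells wt gave 822 to 1143 lower, 0 to 1 higher and medians of -2.58 to -2.22. Of all regions, 8.73% to 13.6% were then lower and 0.0076% to 3.22% higher. Against all 4 libraries with HELLS, 2 were higher and 1260 lower, where 3.74% and 17.4% of all regions were, with a median of -2.97. DESeq2 gave 1 higher, and the pair with adjacent library numbers a median of -1.83. For Spo11/Spo11 against Spo11/+ 0 passed throughout, and the median ran from -0.38 to -0.31. Hells ATAC gave 0 to 1 lower and medians of -0.26 to -0.0055; RLE factors gave 1 lower, the library-number block 12, and the pairs -0.24 and -0.26. Scaling shifted the median of all regions, to 0.09 with RLE factors and -0.17 with library sizes, against -0.02 with TMM, in H3K4me3 of Hells CKO against Hells wt, and to -0.22 with library sizes, against -0.07, in H3K9ac of KI against B6. Where these differ from the main values, the cause was not tested. Depth limits the 202 hotspots under 20 F1 ATAC allele counts, and 1 F1 and 1 Spo11/Spo11 H3K9ac library, 1 Hells wt and 1 Spo11/+ H3K4me3 library leave those groups without a replicate.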
